A study of Mus musculus with 6 samples.

Results

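The genes described here are 34 genes of the unfolded protein response (UPR) and of protein folding in the endoplasmic reticulum (ER). They were chosen by name, as genes of the IRE1-XBP1, ATF6 and PERK pathways and ER chaperones, among 54532 gene identifiers, by a rule that uses no expression value, though with earlier results of these data known. All 34 passed the filter on low counts and belong to the 12894 genes tested. RNA was sequenced from 6 cultures of type 1 conventional dendritic cells (cDC1s), of which 3 were *c-Jun/JunB* fl/fl (called fl/fl 1 to 3) and the other 3 were *c-Jun/JunB* Δ/Δ *Itgax*-Cre (called Δ/Δ 1 to 3). Bone marrow was grown for 8 days with 80 ng/mL FLT3L, a cytokine that drives dendritic cell development, and cDC1s were sorted as CD24+ CD11c+ cells without B220, CD115 or CD172a. In both genotypes *Jun* and *Junb* carry floxed alleles, on a mixed background of the 129 Sv and C57BL/6 strains. In Δ/Δ cultures Cre recombinase under the *Itgax* (CD11c) promoter deletes both genes from the stage at which the cells express CD11c. The sample labels describe this group by its floxed alleles and the Cre. The study counts its RNA-seq samples as individual mice, so the p-values measure the spread between cultures of separate mice.

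The UPR adjusts the folding capacity of the ER to its load. Of its 3 sensors, IRE1 cuts a short intron out of *Xbp1* mRNA, which then encodes an active transcription factor, ATF6 is cleaved in the Golgi to release one, and PERK phosphorylates eIF2α, which lowers translation and favours that of ATF4. The released factors induce chaperones, translocation proteins and ER-associated degradation (ERAD), and ATF4 induces CHOP (*Ddit3*). The IRE1-XBP1 arm is known to be active in cDC1s without an added stress, and lowered XBP1 in these cells is known to lead IRE1 to cut other mRNAs.

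The site that IRE1 cuts is shown because the counts cannot resolve it. It lies in the coding part of *Xbp1* at chr11:5524279-5524304 (GRCm38, plus strand), inside 1 exon of the gene model, and reads of the cut and the uncut form fall on the same gene. Capitals mark the 26 bases that are removed.
*Xbp1* cut site: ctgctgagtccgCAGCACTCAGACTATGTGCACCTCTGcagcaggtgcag
The values of *Xbp1* given here are therefore sums of both forms, and the share that was cut was not measured.

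The ER stress response element (ERSE) is the sequence through which ATF6 and XBP1 are known to act on chaperone genes. Its letters are CCAAT, 9 bases of any kind, then CCACG. It was searched on both strands of promoters of RefSeq genes on GRCm38.p6, from 250 bases before to 50 after the gene start. Of the 34 genes, 28 had a promoter in this set, and 8 of these 28 held the element, against 37 of all 27025 genes in the set (0.119% of 32851 promoters). The sites shown are those of the most abundant chaperones, of *Hsp90b1*, which held 2, and of *Syvn1*, with CCAAT and CCACG in capitals, each printed on the strand on which it reads in this order.
*Hspa5*, chr2:34772017-34772051, plus strand: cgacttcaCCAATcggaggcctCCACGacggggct
*Calr*, chr8:84847067-84847101, plus strand: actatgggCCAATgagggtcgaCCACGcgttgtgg
*Hsp90b1*, chr10:86705630-86705664, minus strand: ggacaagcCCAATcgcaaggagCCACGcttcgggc
*Hsp90b1*, chr10:86705525-86705559, plus strand: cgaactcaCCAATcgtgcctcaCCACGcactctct
*Canx*, chr11:50325792-50325826, minus strand: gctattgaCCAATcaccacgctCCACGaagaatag
*Syvn1*, chr19:6046524-6046558, plus strand: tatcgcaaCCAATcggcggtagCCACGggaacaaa
*Pdia6*, *Dnajc3* and *Creld2* held the element too. A second form, ERSE-II, has the letters ATTGG, any base, then CCACG. It was found upstream of *Herpud1*, with ATTGG and CCACG in capitals, and after the start of *Dnajb11*, against 12 of 27025 genes (0.0365% of promoters).
*Herpud1*, chr8:94386369-94386395, plus strand: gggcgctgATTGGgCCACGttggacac
The XBP1 element TGACGTGG was in none of the 28 genes, against 193 of 27025 genes (0.676% of promoters). The AP-1 site TGANTCA, which Jun proteins bind as dimers, was in 5 of the 28 (*Ddit3*, *Eif2ak3*, *Hspa5*, *Sec61b* and *Sel1l*), against 2425 of 27025 genes (7.81% of promoters). *Sec61a1*, *Hyou1*, *Manf*, *Derl1*, *Atf6* and *Ssr2* had no entry in the set.

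**Figure D1:**
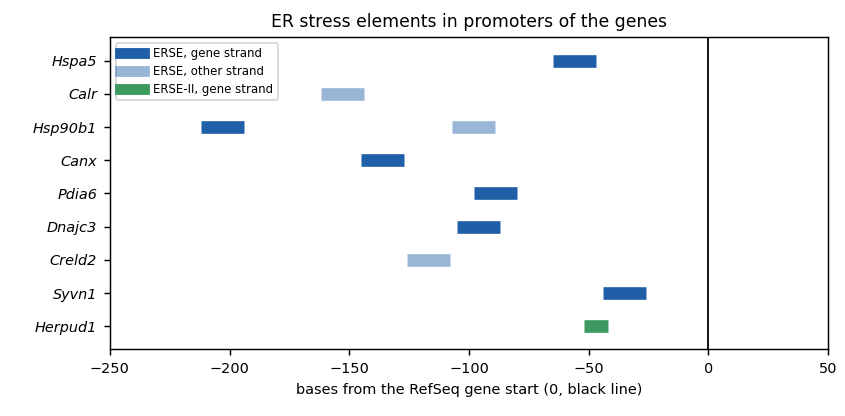
ER stress elements in the promoters of 9 genes, one line per gene, against the distance in bases from the RefSeq gene start at 0. Blue bars are ERSE and the green bar is ERSE-II, and pale bars are read on the strand opposite to the gene. All sites drawn lie before the start, the nearest in *Syvn1* (44 to 26 bases) and the farthest in *Hsp90b1* (212 to 194 bases).

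Of the deleted genes, *Junb* had 314, 274 and 413 CPM (counts scaled to library size with edgeR's TMM factors) for fl/fl 1, 2 and 3, compared with 110.3, 171 and 211 for Δ/Δ 1, 2 and 3, with no overlap between genotypes (log2 fold change −1.02, SE of the fit 0.25, edgeR adjusted p = 0.0729, DESeq2 adjusted p = 0.000119). *Jun* had 70.9, 52.4 and 63.1 against 48.1, 44.2 and 60.4 CPM, which overlap (log2 fold change −0.29, SE 0.15, adjusted p = 0.345). Reads were counted over whole gene models, without regard to the part that Cre removes, and do not measure how many cells lost a gene. Libraries held 21693217 to 26788296 reads on genes. All 11 cDC1 markers were present in all 6 libraries, with *Irf8* at 2650 to 2876 CPM. Of these 11, *Xcr1* and *Tlr3* fell in Δ/Δ (log2 fold changes −1.42 and −0.77, edgeR adjusted p = 0.00812 and 0.0226), none rose, and 5 had a log2 fold change above 0, up to 1.10 in *Itgae*, with a list median of −0.01. The summed CPM of 8 cDC2 markers was 201 to 311 in fl/fl and 480 to 666 in Δ/Δ, and 2 of them rose (*Klf4* and *Cd209a*). Markers of pDCs summed to 225 to 242 CPM in fl/fl and 245 to 294 in Δ/Δ (*Ccr9* rose), and those of monocytes and macrophages to 1789 to 1972 and 1961 to 2585 CPM (*Adgre1* rose). The log2 fold change was above 0 in 7 of 8 tested cDC2 markers, 5 of 6 pDC markers and 4 of 6 monocyte and macrophage markers. The lowest values in these lists were −0.21, −0.41 and −0.45. The 11 B and plasma cell markers summed to 354 to 381 CPM in fl/fl and to 286, 464 and 389 in Δ/Δ 1, 2 and 3, with *Tnfrsf17* at 0 throughout, and none passed. Neutrophil markers summed to at most 16.5 CPM in any library, and T and NK cell markers to at most 0.979 CPM. In bulk RNA, fewer cells of a type and less RNA per cell cannot be told apart.

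The ER folding genes were abundant in cDC1s of both genotypes. In fl/fl, and per kilobase of exon, 33 of the 34 lay above the median of the tested genes (5.84 CPM per kb), 16 lay in the highest 10% and 10 in the highest 5%. *Calr* led with 292 ± 8.08 CPM per kb (SD, n = 3), followed by *Pdia3* with 253 ± 14.8, *Hspa5* with 210 ± 8.37, *Hsp90b1* with 167 ± 8.63, *Sdf2l1* with 132 ± 12.3 and *Canx* with 106 ± 3.00 CPM per kb. *Calr* and *Pdia3* encode partners, since calreticulin holds glycoproteins while the isomerase ERp57 forms their disulfide bonds, and both also serve in loading MHC class I. The PERK branch targets stood at the other end, with *Ddit3* at 5.91 ± 0.28 and *Trib3* at 0.455 ± 0.137 CPM per kb, and *Trib3* was the gene below the median. Of the sensors, *Atf6* had 22.4 ± 0.59, *Eif2ak3* (PERK) 14.4 ± 0.80 and *Ern1* (IRE1) 7.52 ± 0.15 CPM per kb, whereas the factors *Xbp1* and *Atf4* had 69.9 ± 0.71 and 64.2 ± 0.71. The summed level of all 34 was 7411 to 7781 CPM in fl/fl, compared with 7044 to 7546 CPM in Δ/Δ, which overlap.

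**Figure D2:**
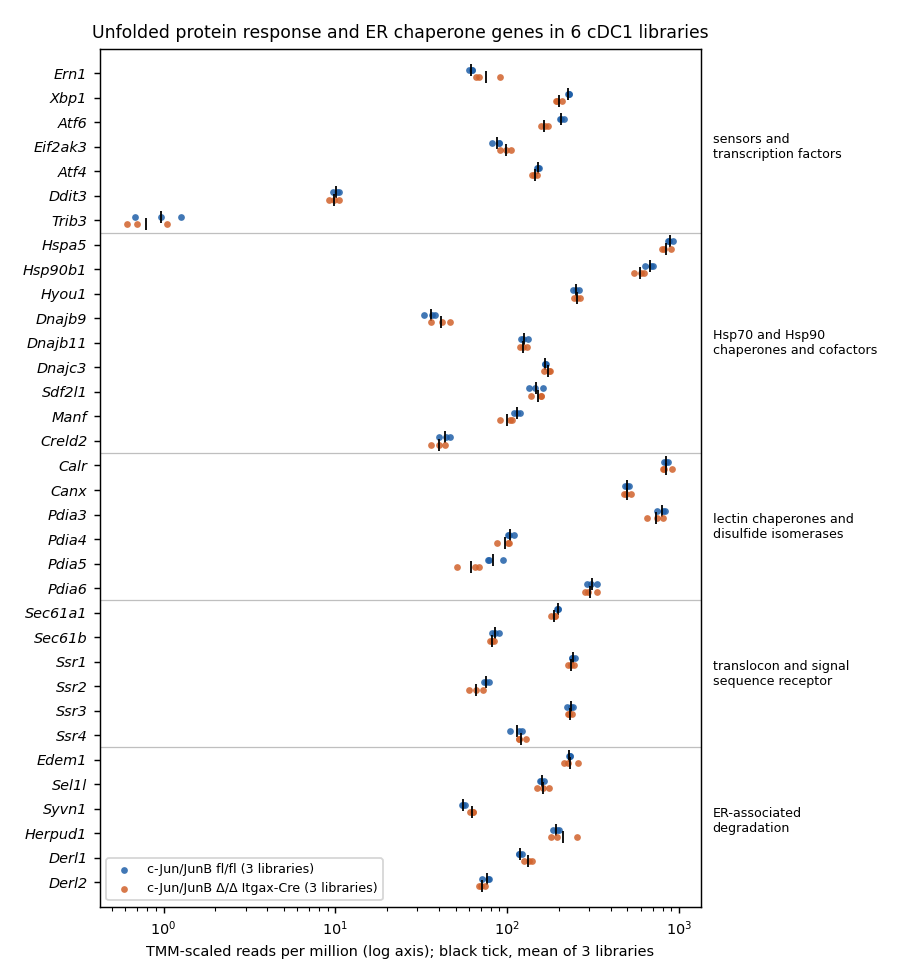
TMM-scaled CPM on a log axis for each of the 34 genes, ordered by role, with 1 point per library (blue, fl/fl; orange, Δ/Δ) and a black tick at the mean of 3 libraries. The points of a gene lie close together compared with the distance between genes, from *Trib3* near 1 CPM to *Hspa5* and *Calr* above 795 CPM.

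Between the genotypes 1 of the 34 genes, *Atf6*, passed an adjusted p of 0.05, against 3.88% of all genes tested (500 genes, 2.03% higher and 1.85% lower in Δ/Δ). Without fl/fl 1, 2 or 3 none of the 34 passed, and the genes passing among all tested fell to 95, 95 and 201. At an unadjusted p of 0.05, 8 of the 34 passed, which is 23.5% against 19.4% of all genes. In 12 of the 34, or 35.3%, the libraries of the genotypes did not overlap, against 26.0% of all genes tested. Of these 12, 8 were lower in Δ/Δ (*Xbp1*, *Atf6*, *Atf4*, *Hsp90b1*, *Manf*, *Pdia5*, *Sec61a1* and *Ssr2*) and 4 were higher (*Ern1*, *Eif2ak3*, *Syvn1* and *Derl1*). The differences were small. The log2 fold changes ran from −0.43 in *Pdia5* to 0.28 in *Ern1* with a median of −0.03, beside 0.0018 over all genes, and the median of their absolute values was 0.09, beside 0.16. For 31 of the 34 genes the 95% confidence interval of the log2 fold change lay wholly between −0.5 and 0.5, against 50.7% of all genes tested, and the exceptions were *Ern1*, *Pdia5* and *Trib3*. All genes tested include many of lower level, since the median level percentile of the 34 was 89.8. Neither fold changes nor intervals were compared with those of genes at a like level.

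**Figure D3:**
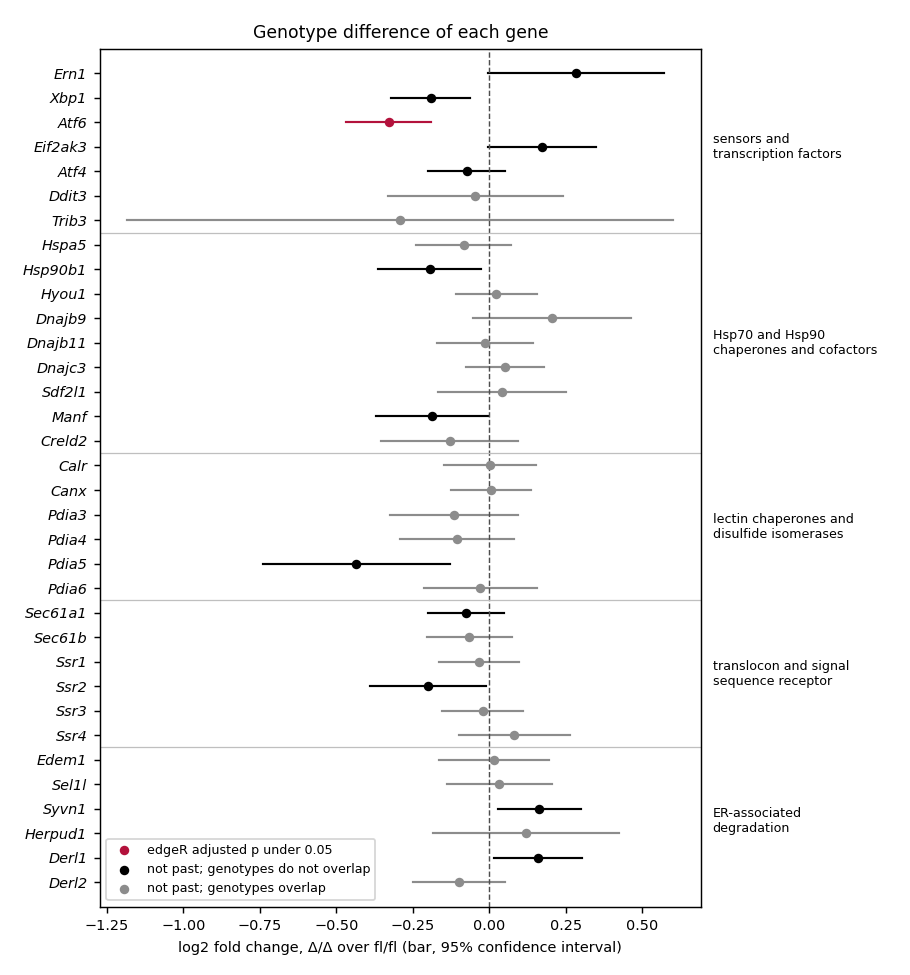
Log2 fold change of each gene, Δ/Δ over fl/fl, with bars for the 95% confidence interval from the edgeR fit of 3 libraries per genotype. *Atf6*, in red, passed an adjusted p of 0.05, black marks the other 11 genes whose genotypes do not overlap, and grey the 22 whose genotypes do.

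Of the 7 sensors, factors and PERK branch targets, 1 passed in edgeR and DESeq2 (*Atf6*) and 2 had an unadjusted edgeR p under 0.05 (*Atf6* and *Xbp1*, both lower in Δ/Δ). Over all genes tested, 3.88% passed in edgeR, 8.57% in DESeq2 and 19.4% at that unadjusted p. *Atf6* (ENSMUSG00000026663.6, chr1:170704674-170867771), the ER membrane sensor that becomes a transcription factor, had 213, 204 and 203 CPM across fl/fl 1, 2 and 3, compared with 165, 156 and 172 CPM in Δ/Δ 1, 2 and 3. Every Δ/Δ library lay below every fl/fl library, and the mean fell from 207 ± 5.41 to 164 ± 7.83 CPM (SD, n = 3 each; 0.796-fold, log2 fold change −0.33, SE 0.06, edgeR adjusted p = 0.0279). The adjusted p was 0.157, 0.132 and 0.0968 without fl/fl 1, 2 and 3, and the log2 fold change stayed between −0.36 and −0.29 with any 1 library left out.

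*Xbp1*, the factor downstream of IRE1, had 228, 228 and 224 CPM across fl/fl 1, 2 and 3, compared with 192, 196 and 209 CPM in Δ/Δ 1, 2 and 3. The Δ/Δ values all lay under the fl/fl values, but the difference did not pass (0.876-fold, log2 fold change −0.19, 95% interval −0.32 to −0.06, edgeR adjusted p = 0.118). *Ern1*, which encodes IRE1 itself, had 60.1, 62.2 and 62.2 CPM in fl/fl, compared with 68.6, 65.5 and 90.4 CPM in Δ/Δ. All 3 Δ/Δ libraries were higher, with Δ/Δ 3 far above the others, and the difference did not reach the threshold (log2 fold change 0.28, interval −0.0040 to 0.57, adjusted p = 0.265). Without Δ/Δ 3 the log2 fold change of *Ern1* was 0.12.

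None of the PERK arm genes passed in edgeR or DESeq2, against 3.88% and 8.57% of all genes tested. *Eif2ak3*, which encodes PERK, had 89.3, 81.2 and 89.8 CPM in fl/fl, compared with 98.3, 90.6 and 104.6 CPM in Δ/Δ, so that the lowest Δ/Δ library stood just above the highest fl/fl one (log2 fold change 0.17, SE 0.08, adjusted p = 0.266). The gene model overlaps *Gm43292* on the other strand over 8.05% of its exon bases. *Atf4* had 149.8, 153 and 152 CPM in fl/fl, compared with 139, 149.5 and 144 CPM in Δ/Δ, a separation of the genotypes by less than 1 CPM (log2 fold change −0.07, interval −0.20 to 0.05, adjusted p = 0.497). Its translation, at which PERK acts, was not measured.

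*Ddit3*, the pro-apoptotic factor CHOP that ATF4 induces, had 10.6, 10.2 and 9.62 CPM in fl/fl, compared with 9.77, 9.14 and 10.5 CPM in Δ/Δ, with overlap (log2 fold change −0.05, interval −0.33 to 0.24). *Trib3*, a pseudokinase that CHOP induces, had 25, 34 and 16 reads in fl/fl 1, 2 and 3 and 26, 15 and 14 in Δ/Δ 1, 2 and 3. At that depth the interval of its log2 fold change ran from −1.18 to 0.60, so a log2 change of −1 was within the interval.

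Among the 9 Hsp70 and Hsp90 chaperones and their cofactors none passed in edgeR or DESeq2, against 3.88% and 8.57% of all genes tested. At an unadjusted edgeR p of 0.05, 2 passed (*Hsp90b1* and *Manf*), against 19.4% of all genes. The median log2 fold change was −0.01. *Hspa5* encodes BiP, the Hsp70 of the ER that also restrains the sensors. It had 926, 856 and 878 CPM across fl/fl 1, 2 and 3, compared with 813, 901 and 796 CPM in Δ/Δ 1, 2 and 3, where Δ/Δ 2 lay within the fl/fl range (log2 fold change −0.08, interval −0.24 to 0.07, edgeR adjusted p = 0.533). *Hsp90b1* encodes GRP94, the Hsp90 of the ER, known as a folding factor of Toll-like receptors and integrins. Its values were 684, 701 and 634 CPM in fl/fl, compared with 625, 596 and 543 CPM in Δ/Δ. The genotypes did not overlap, though fl/fl 3 and Δ/Δ 1 were close, and the difference did not pass (0.874-fold, log2 fold change −0.19, interval −0.36 to −0.03, adjusted p = 0.199). Its exons are shared on the same strand with *Gm15344* and *Gm25745* over 5.38% of their bases, and overlap *1810014B01Rik* on the other strand over 10.3%.

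*Manf*, a secreted ER stress protein that binds BiP, had 119, 109 and 114 CPM in fl/fl, compared with 106, 103 and 90.4 CPM in Δ/Δ, without overlap (log2 fold change −0.19, SE 0.08, adjusted p = 0.250). Its gene model overlaps *4930524O07Rik* and *Dcaf1* on the other strand over 8.85% of its exon bases. *Dnajb9*, the BiP cochaperone ERdj4 and a target of XBP1, had 36.5, 32.9 and 37.8 CPM in fl/fl, compared with 36.0, 46.2 and 41.5 CPM in Δ/Δ. The genotypes overlapped through Δ/Δ 1, and its log2 fold change was 0.21 (standard error 0.11, adjusted p = 0.353). The other 5 genes of this group overlapped between the genotypes. *Dnajb11* (ERdj3) and *Dnajc3* (p58IPK), both cochaperones of BiP, had log2 fold changes of −0.01 and 0.05, *Hyou1*, the large Hsp70-like exchange factor of BiP, had 0.02, *Sdf2l1*, a partner of ERdj3, had 0.04 and *Creld2*, an ER protein with disulfide isomerase activity, had −0.13.

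None of the 6 lectin chaperones and disulfide isomerases passed in edgeR (3.88% of all genes tested), and 1 did in DESeq2 (8.57%). Of these, *Calr* and *Canx* differed least. *Calr*, which encodes calreticulin, had 866, 835 and 820 CPM across fl/fl 1, 2 and 3, compared with 802, 906 and 819 CPM in Δ/Δ 1, 2 and 3, and both the lowest and the highest value came from Δ/Δ (log2 fold change 0.0031, interval −0.15 to 0.15, edgeR adjusted p = 0.985). The gene lies 127550 bases from the deleted *Junb* on chromosome 8. *Canx*, the membrane-bound lectin calnexin, had 496, 510.4 and 482 against 521, 494 and 481 CPM (log2 fold change 0.0072, interval −0.12 to 0.14).

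*Pdia5*, a disulfide isomerase with known effects on ATF6 activation, had the largest fold change of the 34. It had 77.8, 76.8 and 94.1 CPM in fl/fl, compared with 64.8, 51.0 and 68.2 CPM in Δ/Δ, so every Δ/Δ library was lower, with fl/fl 3 and Δ/Δ 2 at the ends. Its 0.740-fold difference missed the threshold in edgeR (log2 fold change −0.43, interval −0.74 to −0.13, adjusted p = 0.126) and passed it in DESeq2 (adjusted p = 0.0307), which called 8.57% of all genes. With a single library left out the log2 fold change lay between −0.52 and −0.32.

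*Pdia3* (ERp57) had 833, 810.1 and 743 CPM in fl/fl, compared with 805, 748 and 650.2 CPM in Δ/Δ, with overlap and Δ/Δ 3 as the lowest library (log2 fold change −0.11, SE 0.09, adjusted p = 0.523). *Pdia4* (ERp72) likewise had 102, 109 and 101 against 101, 103 and 86.8 CPM (log2 fold change −0.11). *Pdia6*, which is known to attenuate IRE1 signalling, had a log2 fold change of −0.03 (interval −0.21 to 0.15).

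The translocon and the signal sequence receptor carry new proteins into the ER. None of these 6 genes passed in edgeR or DESeq2, against 3.88% and 8.57% of all genes tested. At an unadjusted edgeR p of 0.05, 1 passed (*Ssr2*), against 19.4% of all genes. The log2 fold change was below 0 in 5 of the 6. *Ssr2*, the beta subunit of the receptor (TRAP), had 78.1, 75.4 and 73.5 CPM in fl/fl, compared with 72.0, 66.1 and 59.5 CPM in Δ/Δ, lower in every Δ/Δ library (log2 fold change −0.20, interval −0.39 to −0.01, edgeR adjusted p = 0.238), and overlaps *Gm10704* on the other strand over 12.8% of its exon bases. *Sec61a1*, the channel subunit, had 194, 198 and 197 against 179, 189.9 and 189.8 CPM, also without overlap (log2 fold change −0.08, interval −0.20 to 0.05, adjusted p = 0.472). Its gene model overlaps *Gm44170* on the other strand over 8.2% of its exon bases. *Ssr1*, *Ssr3* and *Ssr4*, the other TRAP subunits, overlapped between genotypes, with log2 fold changes of −0.03, −0.02 and 0.08. *Sec61b* had 89.0, 81.7 and 84.9 against 81.2, 83.9 and 79.2 CPM. Its count is uncertain, since 84.0% of its transcript also occurs in *Gm10320*, *Gm5870* and *Gm33666*, where 0 to 16 reads per library were counted.

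The ERAD genes, which serve to return misfolded proteins to the cytosol, were the only one of the 5 role groups with a median above 0 (log2 fold change 0.08). None of the 6 passed in edgeR or DESeq2, against 3.88% and 8.57% of all genes tested. At an unadjusted edgeR p of 0.05, 2 passed (*Syvn1* and *Derl1*), against 19.4% of all genes. *Syvn1* encodes HRD1, the ubiquitin ligase of the pathway. It had 55.4, 54.8 and 56.5 CPM in fl/fl, compared with 62.9, 63.4 and 60.5 CPM in Δ/Δ, higher in every Δ/Δ library with a narrow spread in both genotypes (1.12-fold, log2 fold change 0.16, interval 0.03 to 0.30, edgeR adjusted p = 0.180). *Derl1*, a derlin of the retrotranslocation channel, had 118, 122 and 117 CPM in fl/fl, compared with 125, 139 and 133 CPM in Δ/Δ, again higher in all 3 (log2 fold change 0.16, interval 0.02 to 0.30, adjusted p = 0.216). The pseudogene *Gm35638* holds 20.0% of its transcript, and 8 to 28 reads per library fell on it. *Sel1l*, the partner of HRD1, and *Edem1*, which hands glycoproteins over to the pathway, overlapped between the genotypes (log2 fold changes 0.03 and 0.02), as did *Derl2* (−0.10).

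*Herpud1*, an ER stress-induced partner of HRD1, was set by a single library. It had 193, 186 and 200.3 CPM in fl/fl, compared with 179, 256 and 195 CPM in Δ/Δ, and Δ/Δ 2 stood above all the other 5. Its log2 fold change was 0.12 (interval −0.18 to 0.42, adjusted p = 0.653) with all libraries and −0.05 without Δ/Δ 2. The same library was the highest of its genotype in 16 of the 34 genes, *Hspa5*, *Calr*, *Dnajb9*, *Edem1* and *Sel1l* among them, and in 30.01% of all genes tested. It also held the highest summed level of 6 basophil and mast cell markers (16.8 CPM, against 0.462 to 2.46 in the other 5 libraries) and of the B and plasma cell markers (464 CPM, against 286 to 389), whose part in these values was not tested. Δ/Δ 3 in turn was the lowest of its genotype in 19 of the 34, against 32.1% of all genes tested, and its 34 genes had a median deviation of −0.08 on the log2 scale from the fl/fl means. In fl/fl the lowest library was most often fl/fl 3, in 20 of the 34 and 35.7% of all genes, and the highest was fl/fl 1, in 16 of the 34 and 33.3% of all.

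**Figure D4:**
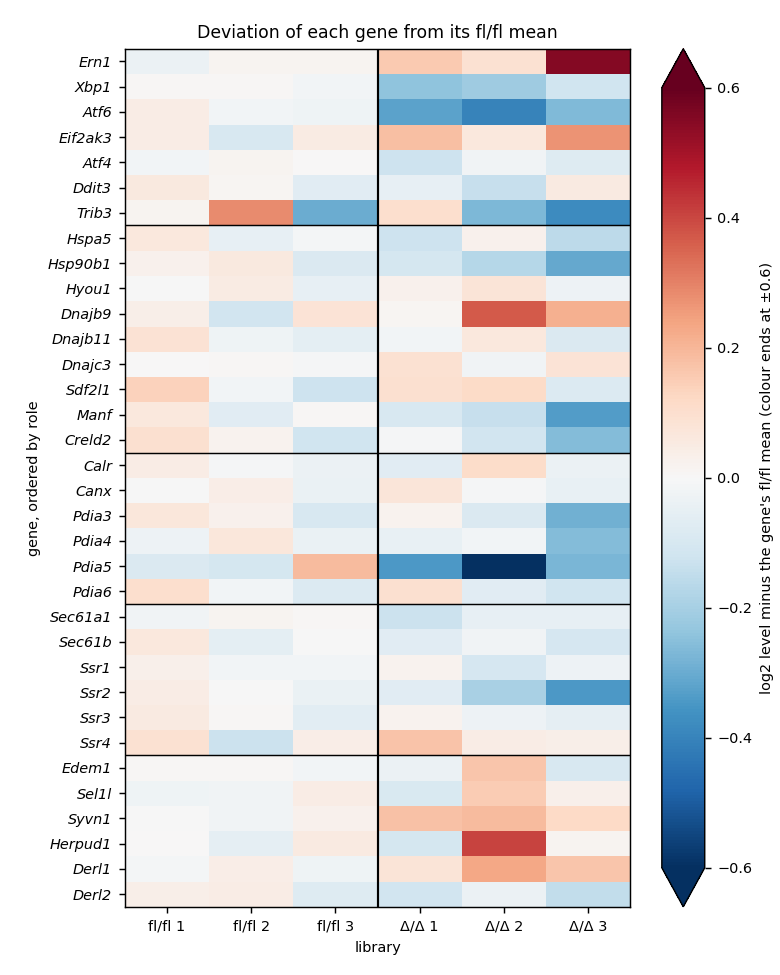
Log2 level of each of the 34 genes (rows, ordered by role) in each of the 6 libraries (columns), minus the mean of the 3 fl/fl libraries of that gene, in colour (red above, blue below, ends at ±0.6). *Atf6*, *Xbp1* and *Pdia5* are blue in all 3 Δ/Δ columns, *Syvn1* and *Derl1* are red in all 3, and *Herpud1* is deep red in Δ/Δ 2.

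The genes with an ERSE can be set beside these values. None of the 8 passed in edgeR or DESeq2, against 3.88% and 8.57% of all genes tested. Their log2 fold changes ran from −0.19 in *Hsp90b1* to 0.16 in *Syvn1* with a median of −0.01, and their confidence intervals lay between −0.36 and 0.30. The ERSE stood in a gene that was lower in all Δ/Δ libraries and in one that was higher in all of them, and in 6 that overlapped. The 5 genes with an AP-1 site included *Eif2ak3*, which did not overlap between the genotypes, and *Hspa5*, *Ddit3*, *Sec61b* and *Sel1l*, which did. Of all genes tested, 26.0% did not overlap between the genotypes.

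The surroundings of these genes were read from 10 lists with 173 further tested genes, none of them among the 34, of which 2 rose and 3 fell at an edgeR adjusted p of 0.05, beside 3.88% of all genes in either direction. In DESeq2 15 of the 173 passed, beside 8.57% of all genes. The number passing was 0, 0 and 2 without fl/fl 1, 2 and 3, and 3 without Δ/Δ 3. It was 25 without Δ/Δ 1, when 1320 of all genes passed. In the lists of ERAD (20 tested), translocon and signal peptide (17) and ER to Golgi transport (21) genes none passed in either direction. The smallest p in each belonged to *Selenok* (log2 fold change 0.24, adjusted p = 0.315), a selenoprotein of the ERAD complex, *Spcs3* (0.17, 0.314), of the signal peptidase, and *Sec24d* (0.42, 0.0835), a cargo adaptor of COPII vesicles. Medians of the 3 lists were 0.03, −0.02 and −0.01. At an unadjusted edgeR p of 0.05, 0, 0 and 1 gene of these lists passed, against 19.4% of all genes. DESeq2 called 0, 0 and 1, the last being *Sec24d* (adjusted p = 0.0223).

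Each of the next 2 lists held 1 gene past the threshold in edgeR, against 3.88% of all genes tested. *Tusc3*, a subunit of the oligosaccharyltransferase, rose in Δ/Δ among 16 tested N-glycosylation genes. It had 33.3, 30.2 and 31.3 CPM in fl/fl, compared with 44.9, 38.7 and 41.9 CPM in Δ/Δ, with no overlap (log2 fold change 0.41, SE 0.08, edgeR adjusted p = 0.0489). *Selenon*, a selenoprotein of the ER membrane, fell among 25 tested ER folding enzymes, from 4.74, 4.15 and 5.0 CPM to 1.99, 2.19 and 1.80 CPM, again with no overlap (log2 fold change −1.21, SE 0.20, adjusted p = 0.0226). Without fl/fl 1, 2 or 3 or Δ/Δ 3 the adjusted p was 0.142, 0.216, 0.159 and 0.103 for *Tusc3* and 0.123, 0.0957, 0.0913 and 0.0599 for *Selenon*. The medians of these lists were −0.08 and −0.04. DESeq2 called 1 and 2 genes of them, against 8.57% of all genes. The second folding enzyme was *Qsox1*, a disulfide-forming oxidase (log2 fold change 0.63, edgeR adjusted p = 0.0832, DESeq2 adjusted p = 0.00791). An unadjusted edgeR p under 0.05 was found for 2 and 4 genes of these lists, against 19.4% of all genes.

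Among 16 tested sensors and regulators of the integrated stress response 2 passed in DESeq2 (8.57% of all genes) and 4 had an unadjusted edgeR p under 0.05 (19.4%). In edgeR 1 passed (3.88% of all genes), *Eif2ak2*, which fell. It encodes PKR, the eIF2α kinase that binds double-stranded RNA and is induced by interferon, and had 109.8, 111 and 95.1 CPM in fl/fl, compared with 68.0, 47.9 and 54.9 CPM in Δ/Δ (log2 fold change −0.89, SE 0.13, edgeR adjusted p = 0.0168). Its adjusted p was 0.0953, 0.0971 and 0.0529 without fl/fl 1, fl/fl 2 and Δ/Δ 3. The other gene called in DESeq2 was *Ppp1r15a*, which encodes GADD34, a subunit of the phosphatase that reverses eIF2α phosphorylation. It had 19.8, 14.6 and 18.7 CPM in fl/fl, compared with 18.8, 48.8 and 41.2 CPM in Δ/Δ, with overlap through Δ/Δ 1 (log2 fold change 1.03, SE 0.33, edgeR adjusted p = 0.144, DESeq2 adjusted p = 0.00972). Without Δ/Δ 1, when 1320 of all genes passed, its edgeR adjusted p was 0.00418.

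Of 29 tested target genes of ATF4 and CHOP, 1 rose and 1 fell in edgeR, against 3.88% of all genes in either direction. Both are enzymes of amino acid synthesis. DESeq2 called 5 of the list (8.57% of all genes) and 8 had an unadjusted edgeR p under 0.05 (19.4% of all genes). Without Δ/Δ 1 edgeR called 7, when 1320 of all genes passed, and 0 to 3 with any other library left out. *Asns*, asparagine synthetase, had 4.01, 5.48 and 3.52 CPM in fl/fl, compared with 10.3, 10.3 and 7.35 CPM in Δ/Δ (log2 fold change 1.10, SE 0.23, adjusted p = 0.0480). *Phgdh*, which opens serine synthesis, had 14.4, 15.2 and 9.41 CPM in fl/fl, compared with 3.85, 2.00 and 1.32 CPM in Δ/Δ (log2 fold change −2.43, SE 0.39, adjusted p = 0.0214). Neither overlapped between genotypes. The adjusted p of *Asns* was 0.214, 0.0940, 0.151 and 0.0739 without fl/fl 1, 2 and 3 and Δ/Δ 2, and that of *Phgdh* 0.113 and 0.109 without fl/fl 1 and 2. The 3 further genes called in DESeq2 were *Slc7a11*, the cystine transporter (log2 fold change −1.73, edgeR adjusted p = 0.0705), *Aldh18a1*, an enzyme of proline synthesis (−0.66, 0.0775), and *Ddit4*, an inhibitor of mTORC1 (0.74, 0.143). The list had a median log2 fold change of −0.10.

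No gene passed among 5 tested substrates of IRE1-dependent decay, which in cDC1s are mRNAs that IRE1 cuts when XBP1 is low. This held for edgeR, DESeq2 and an unadjusted edgeR p of 0.05, against 3.88%, 8.57% and 19.4% of all genes tested. The median log2 fold change of the 5 was −0.02, the lowest was −0.40, and 1 was above 0. The summed CPM of the 7 list genes was 1466, 1452 and 1458 in fl/fl 1, 2 and 3. It was 1314, 1403 and 1449 in Δ/Δ 1, 2 and 3, and this difference was not tested. *Itgb2*, an integrin chain, had the smallest p, with 802, 803 and 814 CPM in fl/fl, compared with 723, 715 and 790 CPM in Δ/Δ (log2 fold change −0.12, adjusted p = 0.312). Of 13 tested cytosolic heat shock genes, which respond to misfolding outside the ER, none passed in edgeR or DESeq2 (3.88% and 8.57% of all genes). An unadjusted edgeR p under 0.05 was found for 3 of them (19.4% of all genes), with *Hsp90aa1* as the one of smallest p (log2 fold change 0.18, adjusted p = 0.176).

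Immediate early genes respond within minutes to stimuli and handling. All 12 tested had a log2 fold change above 0, with a median of 1.08. None passed in edgeR, against 3.88% of all genes, and 4 did in DESeq2 (*Fosb*, *Egr3*, *Ier2* and *Btg2*, against 8.57%). An unadjusted edgeR p under 0.05 was found for 8 of the 12 (against 19.4%), the smallest belonging to *Ier2* (log2 fold change 1.40, edgeR adjusted p = 0.0627). Without Δ/Δ 1, 11 of the 12 passed in edgeR, when 1320 of all genes passed, and none did with any other library left out. Their summed CPM was 866, 788 and 1191 in fl/fl 1, 2 and 3 and 1082, 2149 and 2555 in Δ/Δ 1, 2 and 3. Their part in the differences of the ER genes was not tested.

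**Figure D5:**
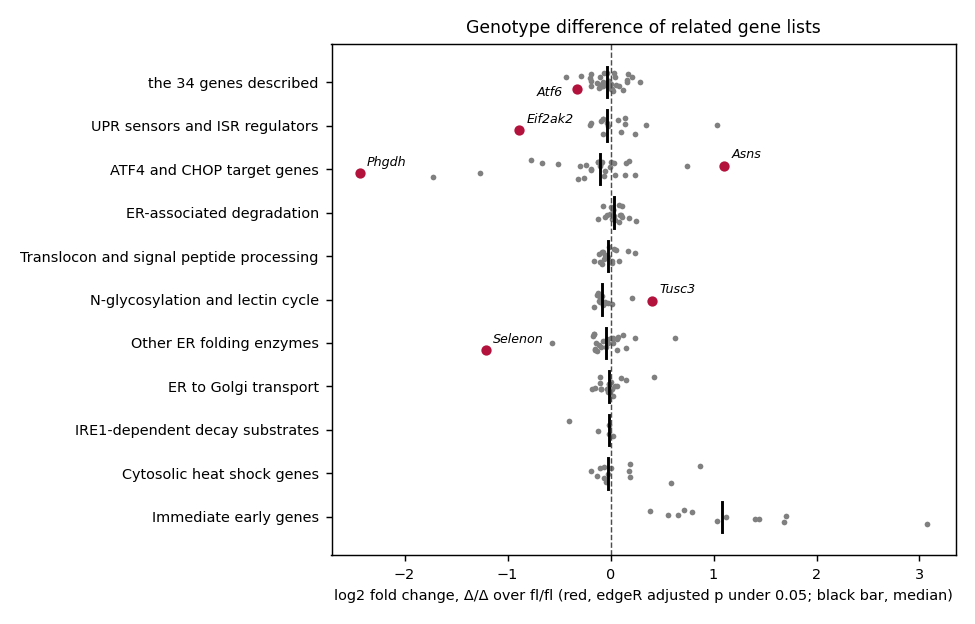
Log2 fold changes, Δ/Δ over fl/fl, of the 34 genes and of 10 related lists, with 1 point per tested gene, a black bar at the median and red for an edgeR adjusted p under 0.05. The 34 genes and the ER lists are packed around 0, with *Atf6*, *Selenon* and *Tusc3* in red, and the immediate early genes all lie to the right of 0.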

How the data were processed

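The authors aligned reads to mm10 with STAR 2.6.1a and GENCODE M19 and deposited 1 table of counts per library, as STAR's uniquely mapped reads per gene, not normalized and not pooled. Copies of a gene therefore lose reads, and the strand column that was used is not stated. STAR's tallies outside genes (20.3 to 20.9% of reads) stayed out of library sizes. Names, positions and exon lengths came from GENCODE M21 (GRCm38), which held 54495 of 54532 identifiers. *Ddit3* names 2 identifiers, and the one with reads was used.

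Counts were fitted with edgeR 4.0.16 in R 4.3.3 (filterByExpr with a minimum count of 10 and total of 15, TMM, glmQLFit and glmQLFTest on genotype), with Benjamini-Hochberg adjustment over all 12894 genes. The paper used DESeq2, run here (1.42.0) as an alternative, as were limma-voom (limma 3.58.1), other scalings, filters, a replicate term and each library left out. Log2 deviations used a pseudocount of 0.5. Code was tested on simulated counts. Replicate pairs had a chi-square per degree of freedom of 6.35 to 10.4 in fl/fl and 27.9 to 38.5 in Δ/Δ. All 6 libraries therefore counted, and the Δ/Δ libraries differed more from each other. The 34 genes and all lists were chosen with earlier results of these data known. Named are all 34, *Jun*, *Junb* and, per list, genes past the threshold or else the one of smallest p. Markers and list genes called in DESeq2 alone were named after their values were seen. Python 3.11.15 with pandas 2.3.3 and matplotlib 3.10.9 was used.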

Additional observations from a re-analysis of the deposited data

Results flagged for a closer look

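STAR's tallies of reads on no gene and of reads ambiguous between genes, which no comparison used, were higher in every Δ/Δ library than in any fl/fl library. Reads on no gene made up 8.57, 9.23 and 8.86% of all reads in fl/fl 1, 2 and 3 and 9.35, 9.45 and 10.3% in Δ/Δ 1, 2 and 3. Reads that were ambiguous between genes made up 1.86, 1.81 and 1.89% in fl/fl and 1.90, 1.94 and 1.98% in Δ/Δ. Of the other tallies, unmapped reads were lower in every Δ/Δ library (3.26 to 3.44%, against 3.96 to 4.20% in fl/fl) and multimapping reads overlapped (5.33 to 5.71% and 5.40 to 5.76%). The difference between genotypes in these shares was not tested. Ambiguous reads bear on the genes described here where models overlap, as in *Hsp90b1*.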

How the results depend on the processing

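The number of the 34 genes past an edgeR adjusted p of 0.05 was 1. It stayed at 1 with DESeq2's size factors, with limma-voom, without a filter and with a stricter one. It was 2 in DESeq2, which added *Pdia5*, 0 with a log2 fold change of at least 0.5 or 1 in addition, and 0 to 1 with a library left out. The 5 genes of the related lists became 15 in DESeq2 and 0 to 25 with a library left out. Leaving out a library also lowers the number of samples fitted. Same-numbered libraries shared only a number (correlations of their deviations 0.09, −0.15 and 0.20 over genes). With a replicate block, 0 of the 34 genes passed (*Atf6*, adjusted p = 0.0542) and 4 list genes did, *Tusc3* (0.0534) and *Selenon* (0.0633) being lost and *Aldh18a1* (0.0319) gained, while *Junb* passed (0.0370). Of 33 uncalled genes, 1 was called under any of the 12 alternatives. The median log2 fold change stayed between −0.06 and −0.0049, genes without overlap numbered 11 or 12 under other scalings, and 33 lay above the median level under both other references. Depth limits *Trib3*, at 14 to 34 reads.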
